A study of Homo sapiens with 4 samples.

Results

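Transcripts of the human proteasome were followed through a short exposure of AC16 cells to doxorubicin. The genes were taken as every protein-coding gene of the GENCODE 29 annotation with a symbol that begins with PSMA, PSMB, PSMC, PSMD, PSME, PSMF or PSMG, which gave 49 of 57891 annotated genes. Of these, 47 reached at least 1 CPM (counts scaled to a common library total) in 1 library and were measured, among 15989 measured genes in all. PSMA8, the testis form of an alpha subunit, had 0 counts in all 4 libraries, which allows a level of up to 0.211 to 0.218 CPM (3 read pairs). PSMB11, the catalytic subunit of the thymus proteasome, had 0.144 CPM in the 10 min library and 0 in the others. PSMC3IP is taken in by its symbol but encodes a partner of the meiotic recombinases and no part of the proteasome; it stays in the counts and is described apart from the other 46.

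AC16 is an established human line, a hybrid of adult heart muscle cells and a fibroblast line, and the labels call it a cardiomyocyte. The anthracycline doxorubicin slips between DNA bases and poisons topoisomerase II. Cells received 10 nM of it in fresh medium without serum after a rinse, for 10, 30 or 360 min, and the cells called 0 min are labelled untreated. Whether the 0 min cells also had their serum medium replaced is not given in the sources used here, so the drug, the rinse and the loss of serum cannot be told apart. With 1 library at each time, differences could not be checked in replicates and p-values were not calculated. An interval beside a ratio is an exact 95% counting interval; it covers counting error only, not the variation between cultures.

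The libraries held 55156612 to 56875881 deposited counts, worth about 13789153 to 14218970 read pairs. Transcript models that carry an assembly-style identifier and no annotated one, called assembled models here, held 10.7% to 11.7% of the counts, most in the 10 min library, and annotated retained-intron models held 5.07% to 5.49%. Counts were found in 29129 loci in the 10 min library, and in 27314 to 27461 loci in the other 3. Of 16 cardiomyocyte markers 8 were measured. The sarcomere genes TNNT2, TNNI3, TNNC1, MYH6, MYH7 and ACTN2 lay between 0 and 0.633 CPM in every library, and PLN had 0 counts. The sarcomere gene MYL2 was measured, with 27.7, 34.0, 37.3 and 37.9 CPM at 0, 10, 30 and 360 min. MYL7 had 1.60, 1.49, 2.01 and 1.02 CPM, and RYR2 had 9.41, 12.3, 9.21 and 7.54 CPM. The 12 fibroblast markers (8 measured, with DCN and LUM at 0 in all libraries) summed to 10539, 13804, 8995 and 8911 CPM at 0, 10, 30 and 360 min.

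The proteasome is the barrel-shaped protease that destroys proteins tagged with ubiquitin. Its 20S core is a stack of rings of alpha subunits, which gate the entry, and beta subunits, some of which cut peptide bonds. A 19S particle caps the core: the ATPases of its base unfold the substrate and thread it into the barrel, and its lid holds the enzyme that removes the ubiquitin chain. Cells such as heart muscle depend on the proteasome to clear damaged proteins, and interferon replaces the cutting subunits by immune forms that change the peptides offered to T cells.

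Most proteasome genes had their lowest level in the 10 min library and lay close to their 0 min level at 30 and 360 min. At 10 min, 40 of the 47 measured members (85.1%) had a CPM ratio to 0 min under 1, against 52.5% of the 11892 genes tested, and 36 of them had an interval wholly below 1 (76.6% of members, 39.0% of all genes tested). The members' median log2 ratio was −0.42, against −0.04 for all genes tested. Well expressed genes, and short ones among them, also lay lower at 10 min: the median was −0.09 over tested genes with at least 20 CPM in either library and −0.16 over those of them with a mean transcript length under 2000 bases. The members' median was below both values. Of tested genes with at least 20 CPM, 46.0% had an interval wholly below 1, and of the short ones among them 52.5% did. In bulk RNA, less RNA per cell and fewer cells of a kind cannot be told apart.

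A gene was called higher or lower when the ratio reached 1.5-fold, the interval left out 1, and either library had at least 5 CPM. At 10 min 15 of 47 members were called lower, where 17% of all genes tested were, and 2 were called higher, where 16.5% were. At 30 min no member was called lower (7.66% of all genes tested) and 3 were called higher (8.26%). At 360 min again no member was called lower (6.99%) and 2 were called higher (6.72%). At both later times the members' median log2 ratio lay within 0.01 of 0, as did that of all genes tested. The 3 comparisons share the 0 min library.

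The low 10 min library also enters the counts that follow, so they restate it and are no separate support. Of the 47 members, 37 (78.7%) had their lowest CPM of the 4 libraries at 10 min, as did 34.3% of all measured genes, and 10 members (21.3%, against 9.33% of all measured genes) lay at least 1.5-fold below each of the other 3 libraries at 10 min: PSMA7, PSMC2, PSMC3, PSMC3IP, PSMC4, PSMD1, PSMD11, PSMD14, PSME3 and PSMG1. At 360 min against 10 min, 15 members were called higher (19.1% of all genes tested) and PSMB9 and PSMF1 were called lower (18.7%). At 360 min against 30 min, a comparison with no library in common with 10 against 0 min, PSMC1 alone was called higher (7.59%) and PSMB10 and PSMF1 were called lower (7.95%).

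**Figure D1:**
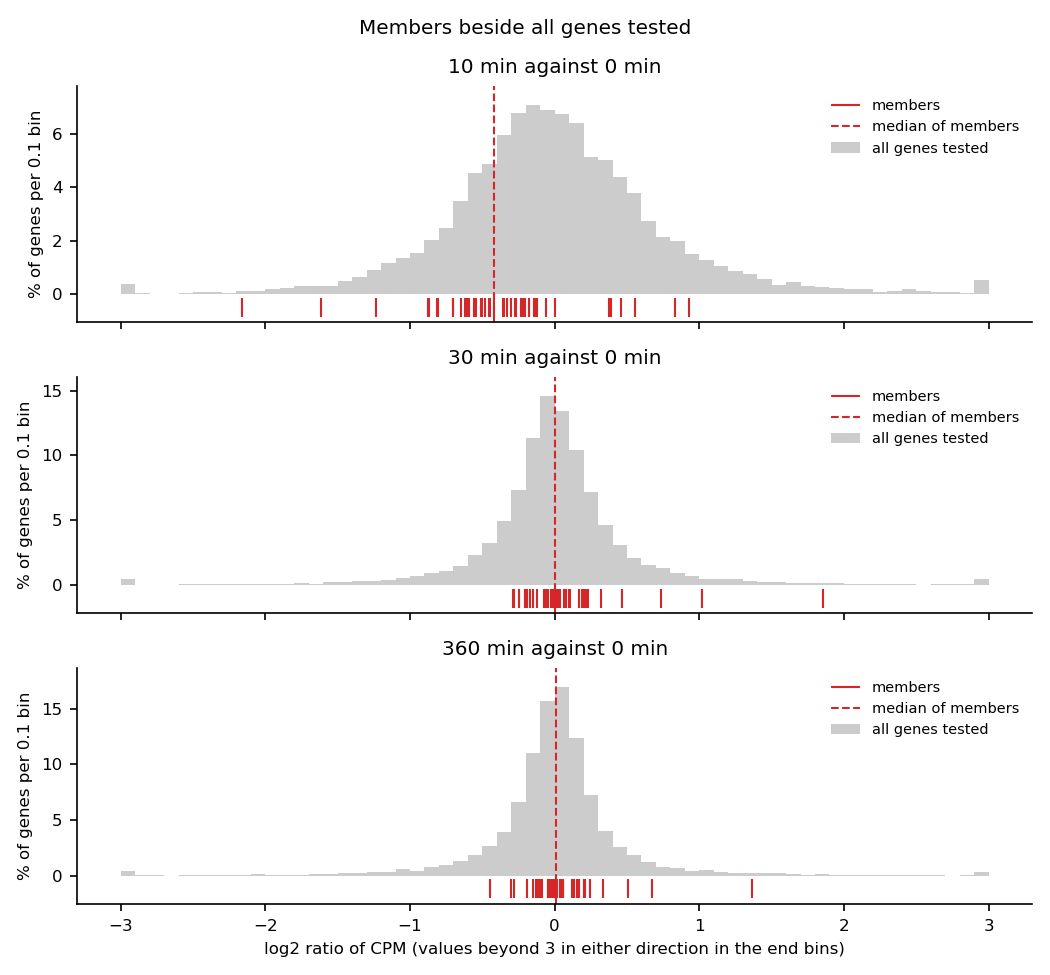
Log2 ratio of CPM at 10, 30 and 360 min to 0 min, with all genes tested as grey bars (percent of genes per bin of 0.1) and the 47 measured members as red ticks. The dashed line at the members' median stands at −0.42 at 10 min and on 0 to within 0.01 at the later times.

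Summed over their annotated transcripts, the 7 subunits of the alpha ring were all lower at 10 min, with a median log2 ratio of −0.33. The most counted transcript alone of PSMA2 and of PSMA5 was higher, at log2 ratios of 0.62 and 1.04. PSMA7, the highest of the ring per kilobase of transcript, had 256, 168, 257 and 259 CPM at 0, 10, 30 and 360 min. Its 10 min library stood apart from 3 libraries at nearly the same level, and at 1.53-fold lower (95% interval 1.45 to 1.61) it was the only alpha subunit called. The other 6 had 10 min ratios of 0.703 (PSMA3) to 0.919 (PSMA4), and the interval of PSMA4 alone reached 1 (0.844 to 1.00). PSMA4, the lowest of the ring per kilobase at 0 min, had 80.2, 73.8, 111 and 92.3 CPM, and its 30 min level was the highest relative to 0 min of the ring at a ratio of 1.38 (1.28 to 1.49).

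In the beta ring, PSMB6 carries the caspase-like site, PSMB7 the trypsin-like site and PSMB5 the chymotrypsin-like site. PSMB6 had 81.2, 53.7, 68.5 and 66.0 CPM at 0, 10, 30 and 360 min, 1.51-fold lower at 10 min (1.38 to 1.66), and its later libraries stayed below the 0 min library, with intervals wholly below 1. PSMB2, a structural subunit, had 186, 123, 194 and 152 CPM and was also 1.51-fold lower at 10 min (1.42 to 1.61). PSMB7 had 132, 90.5, 126 and 132 CPM, a 10 min ratio of 0.684 (0.636 to 0.735) that missed the rule. With the assembled models of its locus, which held 44.3% of the locus counts, the PSMB7 libraries were nearly level, with 223, 211, 222 and 209 CPM and a 10 min ratio of 0.948 (0.901 to 0.997). PSMB1, PSMB3 and PSMB4 had 10 min ratios of 0.828 to 0.865 and ratios of 0.960 to 1.00 later.

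PSMB5 went the other way in its annotated transcripts, and that direction depended on which transcript models were counted. They had 32.1, 61.0, 116 and 82.6 CPM at 0, 10, 30 and 360 min, called higher at all 3 times with ratios of 1.90 (1.70 to 2.14), 3.61 (3.26 to 4.02) and 2.57 (2.31 to 2.88). Assembled models at the locus of PSMB5 (gene at chr14:23016543-23035230 on GRCh38, minus strand) held 4846 counts in the 0 min library, 0 at 10 and 30 min and 54 at 360 min. With them counted, the locus had 117, 61.0, 116 and 83.6 CPM. The 10 min ratio became 0.520 (0.478 to 0.565), the 30 min ratio 0.989 (0.922 to 1.06) and the 360 min ratio 0.712 (0.660 to 0.768). All 3 log2 ratios turned from positive to negative.

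In their annotated transcripts the interferon-inducible beta subunits did not lie lower at 10 min; for PSMB10 this turned when its whole locus was counted. PSMB8, which takes the place of PSMB5, had 21.1, 27.3, 26.3 and 26.5 CPM at 0, 10, 30 and 360 min. PSMB9, which takes that of PSMB6, had 14.1, 20.8, 14.3 and 10.4 CPM. For PSMB10, the counterpart of PSMB7, the values were 13.0, 17.0, 26.4 and 13.5 CPM. The 3 had 10 min ratios of 1.29 (1.11 to 1.51), 1.47 (1.22 to 1.77) and 1.31 (1.08 to 1.60), each above 1 and none past the rule. PSMB10 was called higher at 30 min, 2.02-fold (1.69 to 2.43), but retained-intron models made up much of its annotated counts (35.2% and 30.1% at 0 min in the 2 largest), and assembled models at the locus it shares with CTRL and AC040162.1 held 373, 0, 0 and 378 counts at 0, 10, 30 and 360 min. That locus had 19.3 CPM at 10 min, against 23.2 CPM at 0 min, a log2 ratio of −0.26, and a log2 ratio of 0.47 at 30 min. PSMB8 overlaps PSMB8-AS1 and PSMB9 on the other strand over 20.6% of its exon bases, and PSMB10 overlaps AC040162.1 on the same strand over 34.8%, so reads of these genes may be shared.

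**Figure D2:**
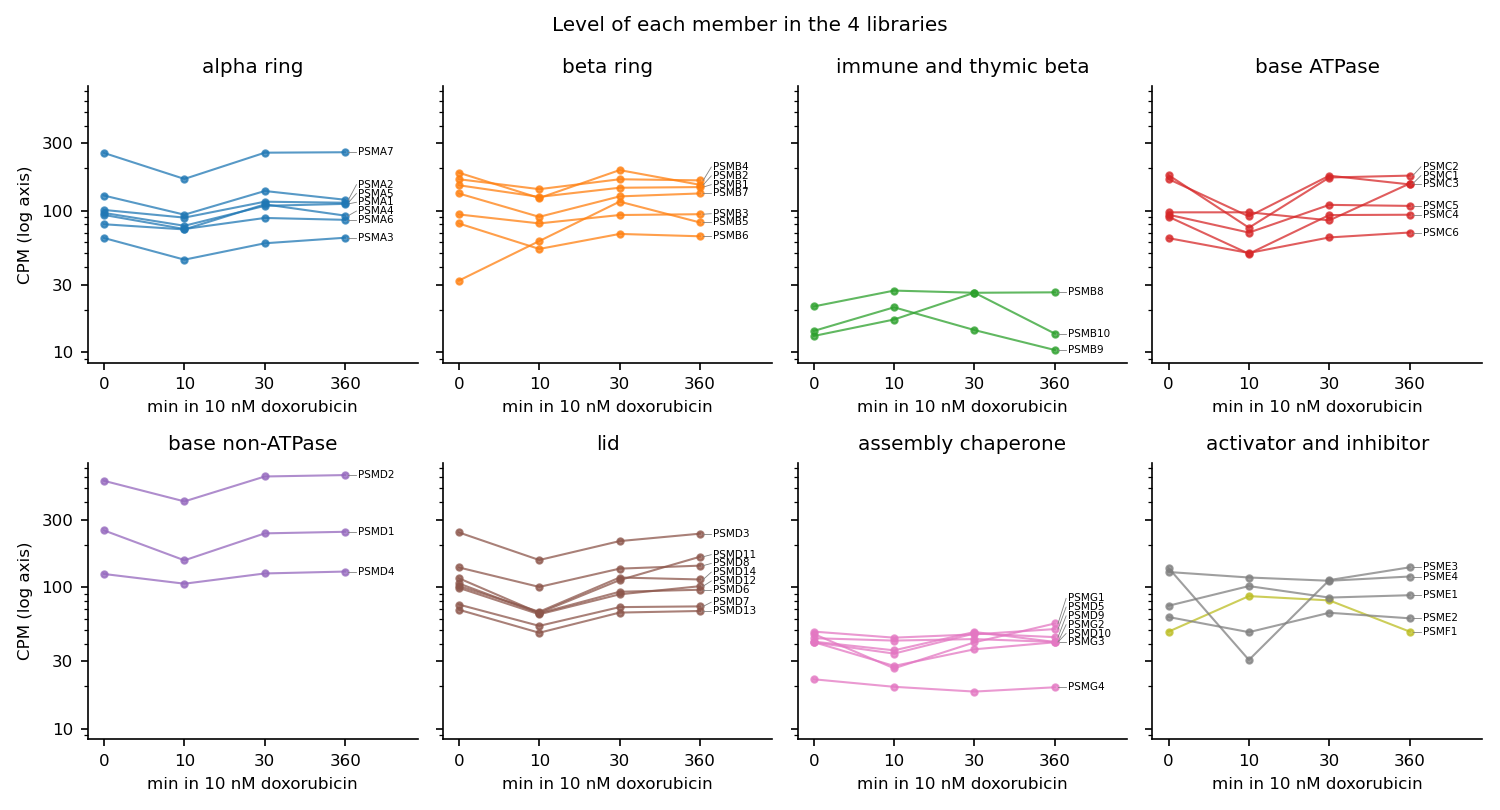
CPM (log axis) of each measured member in the single libraries at 0, 10, 30 and 360 min, by role, with PSMC3IP left out; the time axis is not to scale. Most lines dip at 10 min, while PSMB8, PSMB9, PSME1 and PSMF1 have their highest point there.

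The 10 min ratio was lower for the 19S particle than for the core. Summed over 17 subunits, the particle had 2582, 1719, 2570 and 2751 CPM at 0, 10, 30 and 360 min, a 10 min ratio of 0.666 (0.655 to 0.677). The 14 constitutive core subunits summed to 1663, 1299, 1788 and 1686 CPM, a ratio of 0.781 (0.766 to 0.796) that does not overlap it. Of the particle's 17 subunits 16 had an interval below 1 at 10 min and 9 were called lower, with a median log2 ratio of −0.60. Of the core's 14 subunits 12 had such an interval and 3 were called, with a median of −0.32. Over all genes tested 39.0% had such an interval and 17% were called lower. Of those with at least 20 CPM 46.0% had such an interval, and of the short ones among them 52.5% did. The core's 3 calls lie near the 17% share, but rest on annotated transcripts, in which PSMB5 was called higher. By whole loci PSMB5 was called lower at 10 min, and PSMD11 of the particle was no longer called. With the assembled models of matched loci added, the ratios were 0.673 (0.662 to 0.684) for the particle and 0.772 (0.758 to 0.787) for the core, values added after the data were seen.

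Among the base ATPases, PSMC2 (chr7:103344254-103369395, plus strand) had 178, 75.8, 172 and 177 CPM at 0, 10, 30 and 360 min. The 10 min library was 2.35-fold lower (2.19 to 2.53) in its annotated transcripts; with assembled models, which held 2510 counts at 10 min against 672 at 0 min, the locus ratio was 0.636 (0.598 to 0.676), still past the rule. PSMC2-201 held 60.8% of the gene's counts at 10 min, against 99.5% at 0 min, and PSMC2-203 held 37.7% at 10 min, against 0 counts at 0 min. PSMC3, the highest ATPase per kilobase, had 167, 91.1, 177 and 153 CPM and was 1.84-fold lower at 10 min (1.72 to 1.97). PSMC4 had 90.7, 49.7, 93.2 and 93.7 CPM and was 1.83-fold lower (1.66 to 2.01). In both, the 10 min library alone stood low. PSMC5 and PSMC6 had 10 min ratios of 0.747 and 0.785, short of the rule.

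PSMC1, the lowest ATPase per kilobase at 0 min, had 97.4, 97.5, 85.5 and 156 CPM in its annotated transcripts, level at 10 min and called higher at 360 min at 1.60-fold (1.49 to 1.71). Its assembled models held 2624, 0, 2999 and 4 counts at 0, 10, 30 and 360 min. With them the locus had 144, 97.5, 140 and 156 CPM, which is again lowest at 10 min with a ratio of 0.679 (0.634 to 0.728) and near level at 360 min with 1.08 (1.02 to 1.15). NRDE2 covers 75.8% of the exon bases of PSMC1 from the other strand, and the processed pseudogene PSMC1P1 held 217 to 405 counts, so its level is uncertain.

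PSMD1 and PSMD2 are the large scaffold subunits of the base, on which shuttle proteins and ubiquitin dock, and PSMD4 is a ubiquitin receptor. PSMD2 had 565, 404, 606 and 620 CPM at 0, 10, 30 and 360 min, the highest of the base and lid per kilobase, and its 10 min ratio of 0.715 (0.691 to 0.740) missed the rule. PSMD1, the lowest of the 3 per kilobase at 0 min, had 252, 155, 240 and 246 CPM, 1.63-fold lower at 10 min (1.54 to 1.72). PSMD4 changed least of the 3, with a 10 min ratio of 0.854 (0.796 to 0.915).

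All 8 lid subunits had a 10 min interval below 1 (39.0% of all genes tested, 46.0% of those with at least 20 CPM), and 5 were called lower (17% of all genes tested). PSMD14, the metalloprotease that cleaves the ubiquitin chain from the substrate, had 102, 67.1, 117 and 113 CPM and was 1.52-fold lower at 10 min (1.40 to 1.653). PSMD3, the highest lid gene per kilobase, had 244, 156, 212 and 239 CPM, 1.57-fold lower (1.48 to 1.653). PSMD6 had 106, 65.4, 92.9 and 96.0 CPM, 1.62-fold lower (1.496 to 1.77). These lid genes were lowest at 10 min, and PSMD3 and PSMD6 also had intervals below 1 at 30 min.

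The other called lid genes were PSMD12 and PSMD11. PSMD12, the lowest of the lid per kilobase, had 98.95, 64.4, 89.1 and 102 CPM and was 1.54-fold lower at 10 min (1.41 to 1.67). PSMD11, which sets how much of the 26S form is assembled in stem cells, had 116, 65.8, 112 and 164 CPM, 1.76-fold lower at 10 min (1.62 to 1.91) and 1.42-fold higher at 360 min (1.33 to 1.51). With its assembled models the PSMD11 locus had 116, 85.6, 124 and 180 CPM; the 10 min ratio of 0.740 (0.686 to 0.797) no longer met the rule and the 360 min ratio of 1.56 (1.46 to 1.66) did. PSMD7, PSMD8 and PSMD13 had 10 min ratios of 0.688 to 0.729.

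**Figure D3:**
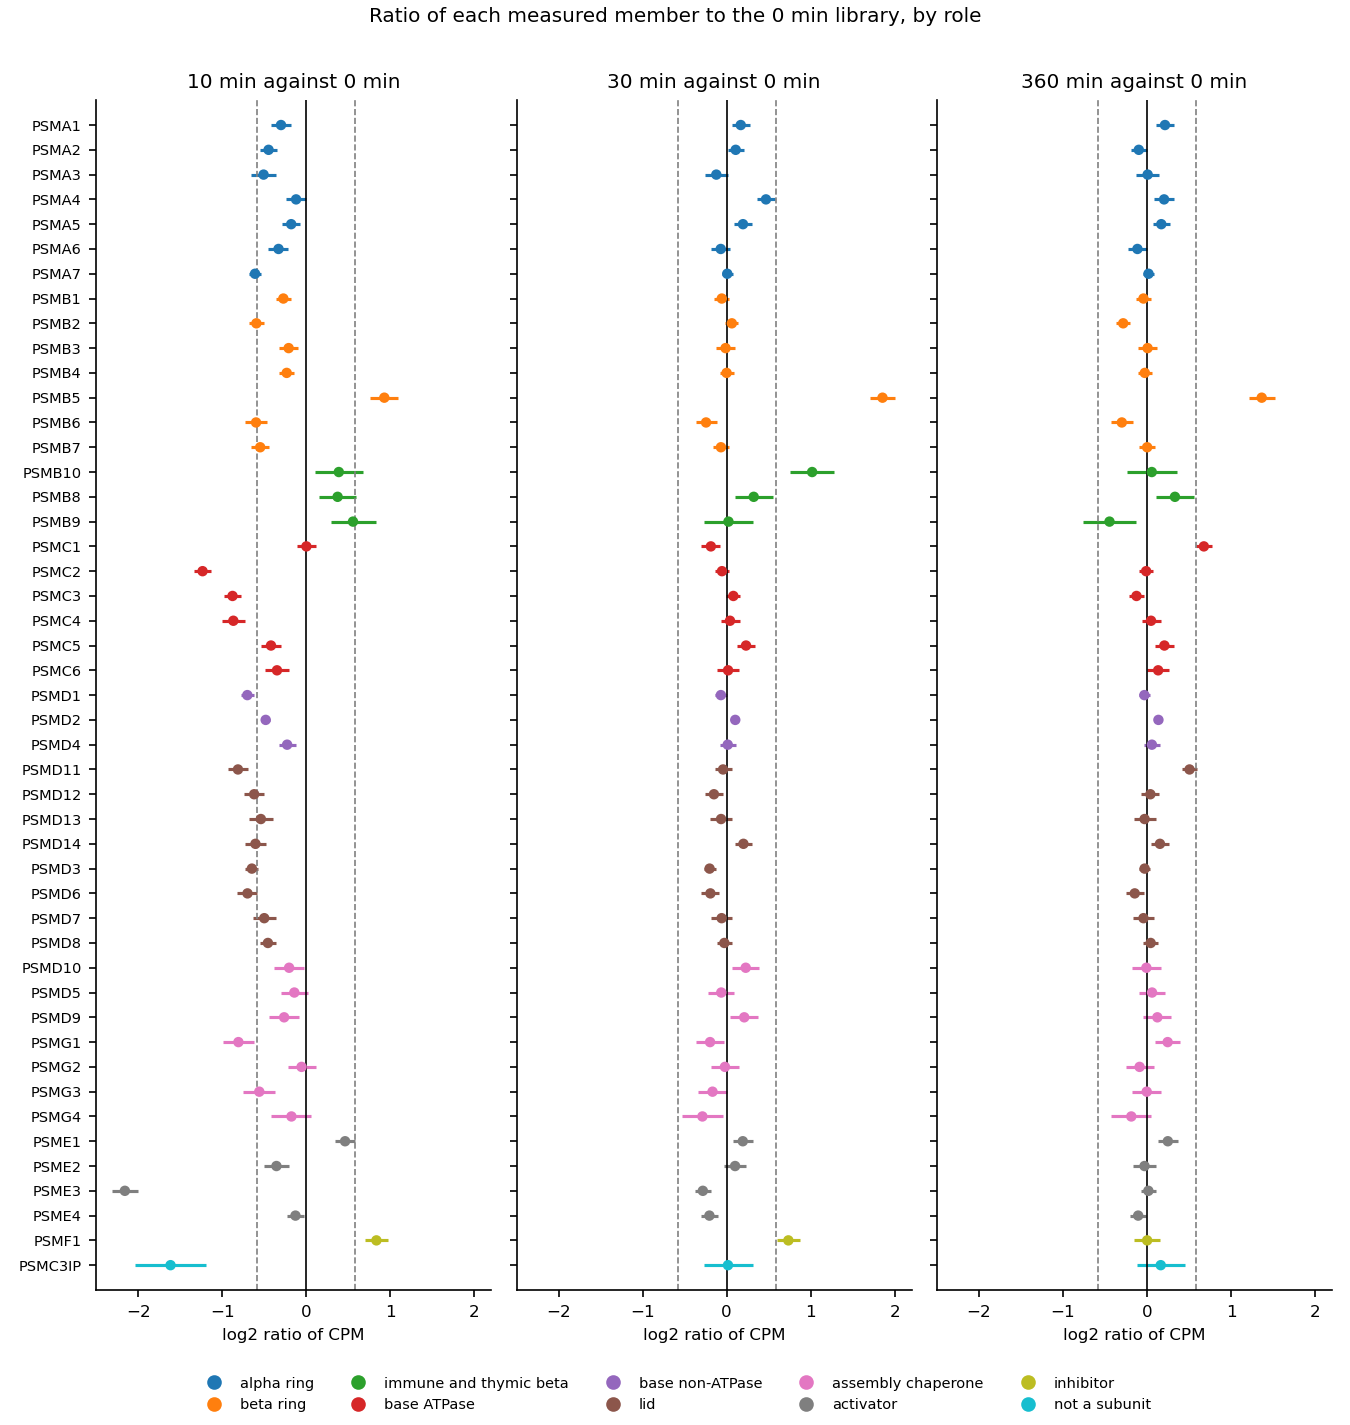
Log2 ratio of CPM of each measured member to 0 min (points) with its 95% counting interval (bars), by role, with dashed lines at 1.5-fold. At 10 min all alpha, non-ATPase base, lid and chaperone points lie left of 0, PSME3 farthest at −2.16 among proteasome genes, and the 3 immune beta points lie right of it, all in annotated transcripts.

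Assembly chaperones, which guide the rings and the base together and then leave, lay lower at 10 min in all 7 cases. Their median log2 ratio was −0.20, and 4 (57.1%) had an interval below 1, as did 39.0% of all genes tested. Of tested genes with at least 20 CPM 46.0% did, and of the short ones among them 52.5% did. PSMG1, which pairs with PSMG2 to build the alpha ring, had 46.8, 26.7, 40.8 and 55.4 CPM at 0, 10, 30 and 360 min, 1.75-fold lower at 10 min (1.54 to 1.99). Its partner PSMG2 had 43.6, 42.0, 43.0 and 41.0 CPM, a 10 min ratio of 0.962 (0.858 to 1.08). The intervals of the pair do not overlap at 10 min. The base chaperones PSMD5, PSMD9 and PSMD10 had 10 min ratios of 0.833 to 0.906. With the most counted transcript alone PSMD9 and PSMG2 had positive log2 ratios at 10 min, 0.17 and 0.57.

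PSME3, which encodes the nuclear activator PA28-gamma that opens the core without ATP or ubiquitin, had the lowest 10 min ratio of all measured proteasome genes. It had 137, 30.6, 112 and 138 CPM at 0, 10, 30 and 360 min and was 4.46-fold lower at 10 min (4.01 to 4.97), the 10 min library standing far below the other 3. No assembled model was counted at its locus (chr17:42824385-42843758, plus strand). The difference sat in the long transcripts: 3 models that run past 3000 bases to the end of the gene, PSME3-201, PSME3-203 and PSME3-217, summed to 115, 7.23, 91.7 and 114 CPM, while the other 14 models summed to 22.1, 23.4, 20.6 and 24.6 CPM. The long models held 83.8% of the gene's counts at 0 min, 23.6% at 10 min, 81.6% at 30 min and 82.2% at 360 min. Which long model was counted also differed: PSME3-201 had 6474, 1, 9 and 6214 counts, PSME3-217 had 0, 1, 4494 and 0, and PSME3-203 had 47, 400, 566 and 53.

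The interferon-inducible activator PA28 is built of the PSME1 and PSME2 proteins, and its genes parted at 10 min. PSME1, the highest activator per kilobase, had 74.0, 102, 84.5 and 87.8 CPM, a 10 min ratio of 1.38 (1.27 to 1.49). PSME2 had 61.6, 48.1, 66.0 and 60.3 CPM, a 10 min ratio of 0.782 (0.705 to 0.865). Neither met the rule. PSME4, which encodes the activator PA200 that acts in the nucleus, had 128, 117, 111 and 119 CPM, a 10 min ratio of 0.914 (0.855 to 0.978).

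PSMF1 encodes PI31, named as an inhibitor of the isolated core. It had 48.5, 86.5, 80.7 and 48.6 CPM at 0, 10, 30 and 360 min, called higher at 10 min (1.78-fold, 1.62 to 1.96) and 30 min (1.66-fold, 1.51 to 1.83) and back at the 0 min level at 360 min. PSMF1-203 differed most within the gene, with 11.01, 35.6, 45.8 and 11.9 CPM, and PSMF1-201 had 27.8, 45.1, 32.0 and 32.5 CPM. Its assembly locus was not found, so assembled models could not be added. PSMC3IP had 14, 4.57, 14.1 and 15.7 CPM and was 3.06-fold lower at 10 min (2.28 to 4.09); MLX covers 29.9% of its exon bases on the other strand.

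**Figure D4:**
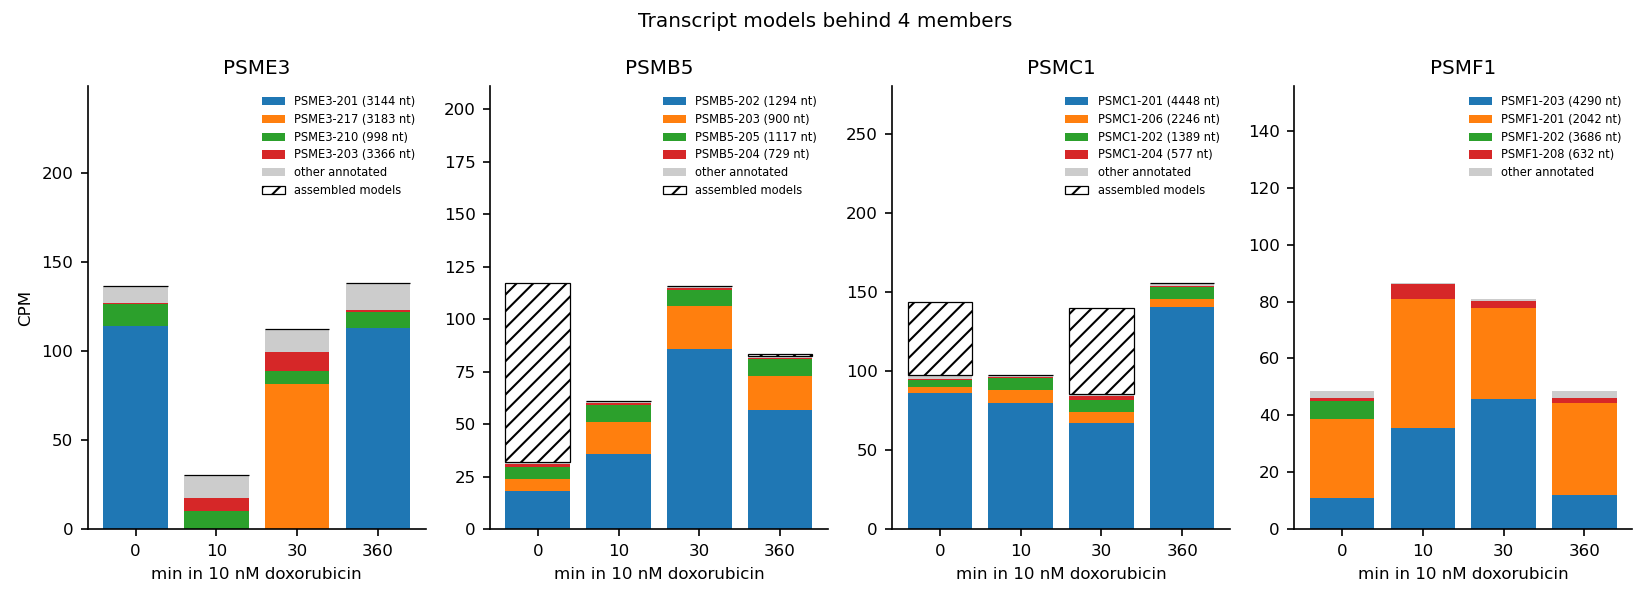
CPM of the transcript models of PSME3, PSMB5, PSMC1 and PSMF1 in the libraries at 0, 10, 30 and 360 min, stacked, with hatched bars for assembled models at the locus (no locus was found for PSMF1). The long models of PSME3 nearly vanish at 10 min, and the hatched bars fill most of the gap of PSMB5 at 0 min and of PSMC1 at 0 and 30 min.

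Over the whole set, 40 members had a matched assembly locus and 28 of these had no assembled counts. Counted by whole loci, 15 of the 40 were called lower at 10 min (14.5% of all loci tested) and none higher (14.6%), with a median log2 ratio of −0.47 against −0.02 for all loci. At 30 min none was called in either direction (4.67% lower, 5.03% higher), and at 360 min only PSMD11 was called, higher (3.36%; 3.73% lower). Of the 15 genes called lower from annotated transcripts 14 were also called from whole loci; PSMD11 was lost and PSMB5 gained. At 2-fold, PSME3, PSMC2 and PSMC3IP were called lower at 10 min (6.85% of all genes tested) and no member higher (7.69%). PSMB5 and PSMB10 were called higher at 30 min (3.55%; 3.25% lower) and PSMB5 at 360 min (3.26%; 3.34% lower), with none lower. At 360 min against 10 min 5 members passed this stricter rule upward (7.99%) and PSMB9 downward (9.13%); at 360 min against 30 min none did (3.26% higher, 3.49% lower).

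The most counted transcript differed from that of the 0 min library in 8 members at 10 min, 8 at 30 min and 7 at 360 min.

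Per kilobase, where levels of different genes can be set side by side, the core genes spanned 40.7 (PSMA5) to 172 (PSMA7) CPM per kilobase at 10 min, against 29.3 (PSMB5) to 260 (PSMA7) at 0 min. The PSMB5 value leaves out the assembled models with 72.6% of the locus counts at 0 min, and the next lowest was PSMA4 at 54.9. The 19S genes spanned 19.2 (PSMD12) to 149 (PSMD2) at 10 min, against 27.2 (PSMD12) to 191 (PSMD2) at 0 min. Their medians were 64.9 for the core and 43.3 for the 19S particle at 10 min, against 92.0 and 63.1 at 0 min. The order of the top genes held through the dip: PSMA7 and PSMB4 led the core and PSMD2 the particle in all 4 libraries. Within the beta ring PSMB4 was highest at 0 min, with 172 CPM per kilobase. At 0 min the immune subunits ran from PSMB10 at 15.9 to PSMB8 at 18.1, and the chaperones from PSMD5 at 16.3 to PSMG1 at 37.5. The activators ran from PSME4 at 19.9 to PSME1 at 78.2. All of these lay below the core median of 92.0, but PSME1 lay above some core genes, such as PSMA4 at 54.9.

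**Figure D5:**
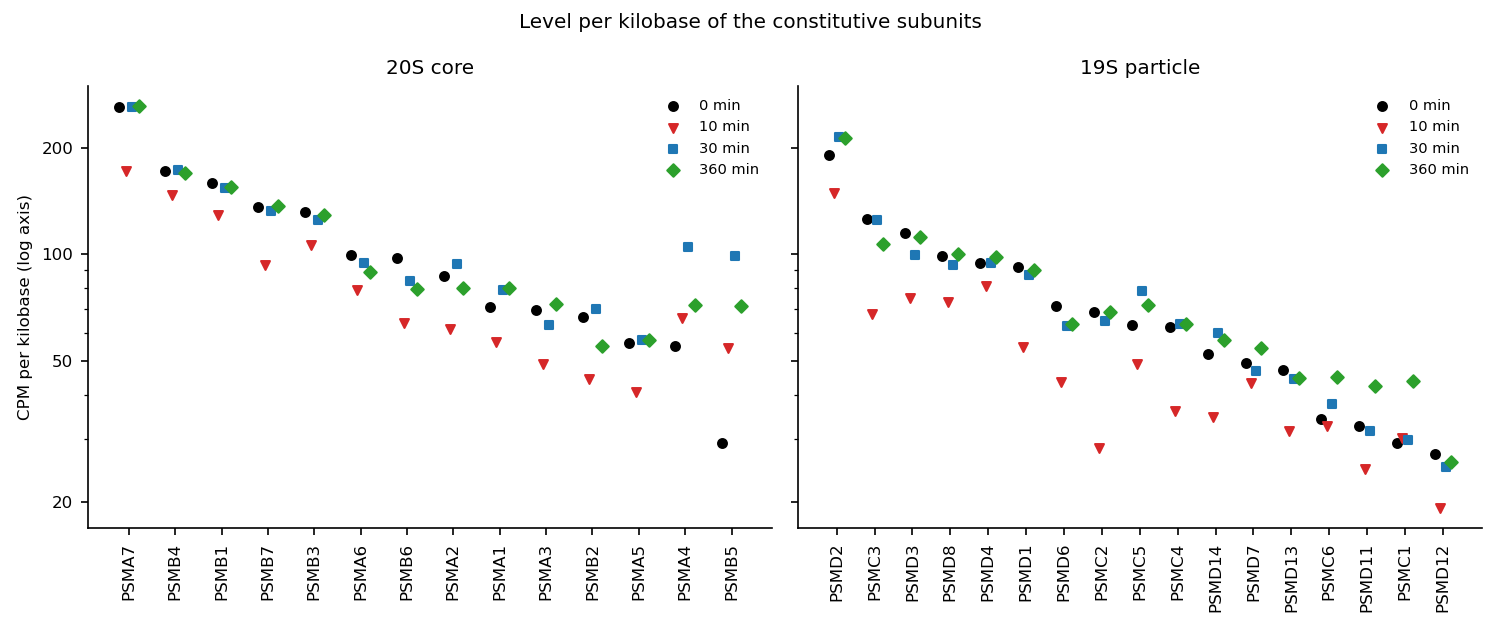
CPM per kilobase of transcript (log axis) of the constitutive 20S and 19S subunits in the 4 libraries, ordered by the 0 min level. The 10 min triangles lie lowest for most genes, and PSMA7 and PSMD2 lead their particles in each library.

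Proteasome genes are known to be driven together by NFE2L1 (NRF1), a membrane-bound factor that pairs with small MAF proteins and is released when proteasome activity falls, and many of their promoters hold sites for the CCAAT-binding factor NF-Y. RefSeq promoter windows on GRCh38.p14, 250 bases before to 50 after each start, were matched for 41 of the 47 measured members, with 51 windows; PSMA7, PSMB1, PSMB6, PSMB7, PSMD4 and PSMG3 were not matched. The letters TGACNNNGC, the core of the antioxidant response element, were searched on both strands and stood in 15 of 51 windows (29.4%), against 13.3% of all 35116 windows of the same length. The letters CCAAT, also on both strands, stood in 21 of 51 (41.2%), against 34.6%. No match to either overlapped a match to the other.

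Members with and without these letters were set against their dip. The 15 genes with TGACNNNGC had a 10 min median log2 ratio of −0.26, and the 26 without had −0.45; 5 of the 15 and 8 of the 26 were called lower. The 20 genes with CCAAT had a median of −0.50, and the 21 without had −0.26. Of the 20, 9 were called lower, and of the 21, 4 were. Of all genes tested 17% were called lower at 10 min. The stretches below show the letters, in capitals, in genes that were called lower at 10 min (PSMD3, PSMD12, PSMG1) and in genes that were not (PSMB3, PSME1, PSMB9), 5′ to 3′ on the gene's strand. They lie 37, 165 and 183 bases before the start in the first set and 104, 86 and 148 bases before it in the second, at chr17:39980740-39980808 (plus), chr17:67366704-67366772 (minus), chr21:39183596-39183664 (minus), chr17:38752607-38752675 (plus), chr14:24136078-24136146 (plus) and chr6:32854014-32854082 (plus).
PSMD3: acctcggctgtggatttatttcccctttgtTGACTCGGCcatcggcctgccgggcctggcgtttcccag
PSMD12: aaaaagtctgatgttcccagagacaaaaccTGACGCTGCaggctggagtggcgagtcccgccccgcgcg
PSMG1: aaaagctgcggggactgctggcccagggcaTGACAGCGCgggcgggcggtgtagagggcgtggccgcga
PSMB3: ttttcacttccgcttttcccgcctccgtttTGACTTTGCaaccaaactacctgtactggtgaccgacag
PSME1: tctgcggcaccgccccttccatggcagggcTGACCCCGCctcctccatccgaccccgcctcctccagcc
PSMB9: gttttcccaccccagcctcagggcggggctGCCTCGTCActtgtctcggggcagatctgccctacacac

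In PSMB9 the letters are read on the other strand. PSME3 and PSMC2, the proteasome genes with the lowest 10 min ratios in annotated transcripts, held CCAAT and no TGACNNNGC in their windows, at 12 bases before the start on the other strand for PSME3 and 31 bases before it for PSMC2. Their windows (chr17:42833147-42833446 and chr7:103347393-103347692, both plus) are shown whole for that reason. By whole loci PSMC2 had a log2 ratio of −0.65 and was not among the lowest. PSMB5 (−0.94), PSMC4 (−0.87), PSMC3 (−0.85), PSMG1 (−0.81), PSMD14 (−0.74), PSMD1 (−0.70) and PSMD6 (−0.70) lay below it. Of these, PSMC4 and PSMD1 held TGACNNNGC and no CCAAT, PSMG1 held both, and the rest held CCAAT only.
PSME3: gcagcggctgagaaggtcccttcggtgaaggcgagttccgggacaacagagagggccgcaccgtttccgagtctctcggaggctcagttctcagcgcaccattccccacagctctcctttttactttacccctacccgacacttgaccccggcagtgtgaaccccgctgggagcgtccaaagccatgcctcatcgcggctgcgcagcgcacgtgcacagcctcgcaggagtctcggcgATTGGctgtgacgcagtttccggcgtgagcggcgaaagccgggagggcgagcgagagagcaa
PSMC2: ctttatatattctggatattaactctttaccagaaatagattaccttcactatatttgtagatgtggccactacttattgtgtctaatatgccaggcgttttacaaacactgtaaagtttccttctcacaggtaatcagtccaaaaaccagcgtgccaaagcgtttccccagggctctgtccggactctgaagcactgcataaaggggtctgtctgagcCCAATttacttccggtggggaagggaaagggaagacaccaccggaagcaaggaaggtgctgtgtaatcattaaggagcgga

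Among genes for the control of proteasome transcription, NFE2L1 itself had 392, 211, 452 and 407 CPM at 0, 10, 30 and 360 min, a 10 min ratio of 0.539 (0.515 to 0.564), and was called lower. Of 14 listed genes tested at 10 min 4 were called lower (17% of all genes tested) and 2 higher (16.5%). NFE2L2 (NRF2, the oxidative stress factor) had 63.5, 31.1, 37.6 and 44.9 CPM, MAFK had 80.3, 29.8, 36.5 and 82.3, and NFYC had 27.2, 15.6, 26.4 and 25.5. MAFG had 40.6, 81.4, 76.6 and 74.7 CPM, and NFYA, an NF-Y subunit, had 2.76, 22.5, 2.08 and 2.70, so NFYA stood high in the 10 min library alone. At 30 min MAFG and KEAP1, the adaptor that has NRF2 degraded, were called higher and NFE2L2 and MAFK lower, of 13 tested (8.26% and 7.66% of all genes tested). At 360 min, also of 13, MAFG was called higher and MAFF lower, near the shares of all genes tested (6.72% and 6.99%). No whole-locus value was matched for MAFG, NFE2L2 or NFYA.

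Of 18 proteasome partners outside the PSM symbols that were tested at 10 min, 4 were called lower (17% of all genes tested) and none higher (16.5%), with a median log2 ratio of −0.19. ADRM1, a ubiquitin receptor of the 19S particle, had 165, 95.3, 169 and 176 CPM, and TXNL1, a thioredoxin bound to the 19S particle, had 80.9, 40.3, 56.1 and 68.4; ZFAND2A and PITHD1 were the others. At 30 min none was called (8.26% of all genes tested were called higher and 7.66% lower). At 360 min USP14, the ubiquitin protease that sits on PSMD2 in the base, was called higher (6.72%) and none lower (6.99%). USP14 had 95.6, 95.7, 124 and 144 CPM, at the edge of the rule with a ratio of 1.501 (1.40 to 1.61). In the list of ubiquitin shuttles and p97 cofactors NSFL1C alone was called, lower at 10 min (log2 ratio −0.60, or −0.55 for its whole locus). That is 1 of 14, where 17% of all genes tested were called lower, with a list median of −0.31. Among 6 ubiquitin and E1 genes none was called at 10 or 360 min.

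Genes that supply peptides to class I molecules had a positive median log2 ratio at 10 min, 0.20 over 15 genes, with 3 called higher (16.5% of all genes tested) and 1 lower (17%). Among those called higher, TAP1 had 31.4, 47.5, 49.97 and 35.2 CPM at 0, 10, 30 and 360 min, and TAPBP had 93.7, 148, 107 and 100.2; the whole locus of TAPBP had a 10 min log2 ratio of only 0.12. TAP2 was lower, with 155, 97.3, 174 and 174 CPM. At 30 min TAP1 was called higher (8.26% of all genes tested) and B2M lower (7.66%), with 317, 287, 74.4 and 263 CPM for B2M, a library apart from the other 3. At 360 min IRF9 was called lower (6.99%) and none higher (6.72%).

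Other values also set the 10 min library apart. The fibroblast marker sum was highest there, with 4 of 7 tested markers called higher at 10 min (COL1A2, FN1, VIM and PDGFRA), where 16.5% of all genes tested were. The other tested markers were not called, with 10 min ratios of 1.08 for COL1A1, 1.49 for PDGFRB and 0.847 for S100A4. Cardiomyocyte markers summed to 127, 169, 225 and 152 CPM at 0, 10, 30 and 360 min. That sum was highest at 30 min, where NPPB had 122 CPM against 37.1 CPM at 0 min, and did not single out the 10 min library. Of 6 tested at 10 min, NPPB and DES were called higher (16.5% of all genes tested) and NKX2-5 lower (17%), at a ratio of 0.547. Immune markers (3 of 8 measured; CD14 and TYROBP among those at 0 in all) summed to 31.6, 59.8, 33.5 and 30.8 CPM, nearly all of it CD68, and endothelial markers (1 of 6 measured; KDR at 0 in all) to 5.70, 11.5, 4.54 and 5.91 CPM, mostly VWF. PTPRC had at most 0.217 CPM and PECAM1 at most 0.127 CPM. The part of these shifts, of the higher number of loci and of the higher share of assembled models in the members' dip was not tested. Other members whose exons overlap a gene on the other strand by at least 10% were PSMA2, PSMC5, PSMD1, PSMD7, PSMG2 and PSMG4, and PSMA1, PSMA2, PSMA6 and PSMD9 overlap a gene on their own strand; whether reads were counted by strand is not given in the sources used here.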

How the data were processed

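Poly(A) RNA of AC16 cells was sequenced, 1 library per time. The submitters' processing notes name HISAT2, DESeq2 and GRCh38 without versions. How reads were counted, and whether by strand, is not given in the sources used here. What the authors deposited are estimated counts per locus and transcript, unscaled whole numbers. Of 9164 low values of single-transcript loci 32.4% were multiples of 4, where even spacing gives 25%, and 58.3% were multiples of 2. A read pair was taken as worth 4 counts, and this is not settled. At 2 counts per pair 15 members were still called lower at 10 min and 2 higher. Intervals and floors cover counting error only. Molecular identifiers are not recorded in the labels.

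From these, annotated transcripts were summed per GENCODE 29 gene over the whole table and scaled to CPM by library totals. The 10, 30 and 360 min libraries were compared with 0 min, and 360 min with 10 and 30 min. The 30 and 10 min libraries were not compared with each other. Each comparison took the CPM ratio with an exact conditional binomial (Clopper-Pearson) 95% interval (SciPy 1.17.1, pandas 2.3.3, numpy 2.4.6, Python 3.11.15, matplotlib 3.10.9). Whole-locus values add assembled models; a locus was assigned to a gene when subtracting those models left exactly the gene's sum, or that of up to 6 neighbours of which 1 held 95%. edgeR 4.0.16 and DESeq2 1.42.0 in R 4.3.3 gave other scaling factors only; with 1 library per time no count test was run. The steps were tested on simulated data.

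The members and gene lists were chosen with earlier results of these data known. Named were members past the 1.5-fold rule, the catalytic and immune beta subunits, activators and inhibitor, the highest and lowest per kilobase of each role at 0 min, and at most 4 called genes per list, time and direction, with NFE2L1; other members appear in ranges. Some listed genes are not reported here.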

Additional observations from a re-analysis of the deposited data

How the results depend on the processing

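The members' median log2 ratio at 10 min stayed below 0 under every scaling and counting choice tried. Called lower were 15 members in the main setting, 17 with TMM factors, 16 with median-of-ratios factors and 15 with whole loci (PSMD11 lost). The count was 14 at a minimum of 20 CPM and 20 with the most counted transcript alone (PSMB2 and PSMB6 lost). It was 15 with the median of the other 3 libraries as the baseline (PSMB6 and PSMD6 lost). After centring on the median of all genes it was 10, which lost PSMA7, PSMB2, PSMB6, PSMD12 and PSMD14. With the most counted transcript alone some members turned to positive log2 ratios. Among them were PSMA2 (0.62), PSMA5 (1.04), PSMD9 (0.17), PSME4 (0.07) and PSMG2 (0.57). Of all genes tested 17% were called lower in the main setting, and 14.5% by whole loci. At a minimum of 20 CPM 1414 of 7982 genes were. No count over all genes was made with the other scaling factors, the most counted transcript or the other baseline. Whether the member counts there, the 10 after centring among them, exceed the share of all genes is not known. The members' median log2 ratio lay between −0.38 and −0.57, the last with the most counted transcript alone. Without members whose locus was unmatched or held at least 5% assembled counts, a choice made after seeing the data, 33 members remained. Of these 12 were called lower at 10 min (17% of all genes tested) and 0 higher at 10, 30 and 360 min (16.5%, 8.26% and 6.72%). Counts of higher calls were less stable. By whole loci they were 0, 0 and 1 at 10, 30 and 360 min, and PSMB5 turned to log2 ratios of −0.94, −0.016 and −0.49. The most counted transcript alone gave 6, 5 and 7 higher, and 5 and 2 lower at 30 and 360 min. With the median of the other 3 libraries as the baseline 1 member was higher at 10 min, and 1 higher and 1 lower at 360 min. Without members whose leading transcript differed, 1 was higher at 30 min (8.26% of all genes tested). No paired analysis was possible because each time has 1 library; leaving out a replicate was likewise not possible. With no replicates, every count compares libraries, and members near the 1.5-fold limit cross it with small changes of scaling.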
